A study of Mus musculus with 34 samples.

Results

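Amino acid transporters were examined in J1 mouse embryonic stem cells (mESCs) cultured without leukaemia inhibitory factor (LIF), with or without Royalactin, a protein of honey bee royal jelly. The genes were taken by symbol as all numbered members of 7 solute carrier families that carry amino acids (Slc1a, Slc3a, Slc6a, Slc7a, Slc36a, Slc38a and Slc43a). This gave 59 of the 23366 rows of the expression table. RNA-seq was performed on 2 libraries of J1 mESCs in serum/-LIF and on 2 libraries of J1 mESCs in serum/-LIF + Royalactin at 0.5 mg/ml. All 4 libraries came from a single cell line, were labelled as passage 40 (the text of the study names another passage), and received the same serum medium with added non-essential amino acids and a glutamine supplement. The libraries are labelled as replicates without a statement that they came from separate cultures, so the p-values measure only the spread between these libraries, which may be technical.

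Cells take up most amino acids through secondary carriers that couple them to sodium or protons, or exchange them for other amino acids. The SLC7 light chains reach the plasma membrane bound to an SLC3 heavy chain, whereas the cationic SLC7 carriers work alone. The SLC38 and SLC1 families bring in glutamine, alanine, serine and glutamate, and SLC6 carriers move neurotransmitters, taurine, creatine and neutral amino acids. In mESCs, amino acid supply sustains growth through the kinase complex mTORC1, and shortage raises translation of ATF4, a transcription factor that switches on many of these carriers.

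The families hold several genes outside this definition or function. Slc43a3 carries nucleobases, Slc6a8 carries creatine, Slc6a6 carries taurine, and Slc6a2, Slc6a3 and Slc6a4 carry monoamines. They were kept because the symbol alone selected the members.

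The libraries held 14737796 to 17597818 gene reads each, of which the ribosomal precursor Rn45s took 9.08% to 46.6%, with the larger share in replicate 1 of both groups. Levels are given as normalized counts, which are reads scaled by a size factor for each library. Where a gene has no read, 3 reads were taken as a floor for counting error alone, which amounts to 4.01 and 3.11 normalized counts for serum/-LIF replicates 1 and 2, and to 3.02 and 2.07 for the Royalactin libraries. Of 12 pluripotency genes, all were measured and 6 rose with Royalactin (limma, Benjamini-Hochberg adjusted p under 0.05). Among them Klf4 and Tfcp2l1 had the highest log2 fold changes of the list, 3.88 and 3.10. In all, 11 of the 12 were above 0 and 1 was below. Tdgf1 was lower, with 10914 and 14553 normalized counts in serum/-LIF against 8696 and 9728 with Royalactin (log2 fold change -0.45). Pou5f1 stood at 0.25 with overlapping groups. Among markers of other cells, 4 of 12 fibroblast, 9 of 10 neural, 7 of 12 extraembryonic endoderm and 4 of 8 trophoblast genes were measured. Of these limma called the neural gene Nes, which fell, and DESeq2 on whole reads also called 1 fibroblast marker. The summed neural markers were 2229 and 1778 normalized counts in serum/-LIF against 1341 and 1445 with Royalactin, with Neurog2 at 0 in all libraries. Nes alone held 1490 and 1099 of these against 334 and 326, so the fall of the sum was that of Nes. Of the 9 tested neural genes, 6 had a log2 fold change above 0 and 3 below, with a median of 0.63. The summed fibroblast markers were 1379 and 1250 against 1104 and 961, with Pdgfrb, Postn and S100a4 at 0. Most of this sum was Vim, at 1218 and 1150 against 1019 and 896. The endoderm sums were 2356 and 1629 against 1710 and 1410, and the trophoblast sums were 206 and 235 against 369 and 450, with Elf5 at 0. In the endoderm sums Sparc held 1209 and 735 against 755 and 805, and Cubn 702 and 549 against 619 and 362. Tfap2c held 37.4 and 104 of the trophoblast sums against 214 and 310. Such sums follow their highest genes and do not give the level of a cell type. The part of other cell types in the transporter values was not tested. In these bulk libraries, fewer cells of a type and less RNA per cell cannot be told apart.

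None of the transporter genes passed the test between the groups. Of the 59 genes, 34 had a mean of at least 10 normalized counts and were tested, and 25 lay under this filter. The test was limma on log2(normalized count + 1) with Benjamini-Hochberg adjustment over all 12993 genes above the filter. It called 0 of the 34 transporters at an adjusted p under 0.05, against 0.493% of all tested genes. The lowest adjusted p among the transporters was 0.268, for Slc1a4. At an unadjusted p under 0.05 there were 4 transporters, against a background of 9.34% of all genes. Slc1a4, Slc7a11 and Slc7a14, which are described here, were lower with Royalactin. At least 2-fold differences at this p were seen for 3 transporters, Slc1a4 and Slc7a11 among them, and for 7.13% of all genes. On the whole reads recovered from the table, edgeR called 0 transporters, against 0.423% of all genes, and DESeq2 called 0, against 1.91%. At an unadjusted p under 0.05, edgeR gave 4 transporters and 1178 of all 12993 genes. DESeq2 gave 3 transporters and 1252 of all genes.

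The test could only have called large changes. Given the spread between replicates, the smallest difference that would have been called in any transporter was 1.46 on the log2 scale, or 2.75-fold, and the median over the 34 genes was 2.21. For 6 genes the 95% interval of the difference lay within 2-fold in either direction. For the other 28 genes a 2-fold change in at least 1 direction lay inside the interval. A missing call therefore does not show that a carrier stayed the same.

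Both Royalactin libraries lay below both serum/-LIF libraries for 11 transporters and above them for 5, and the groups overlapped for 18. Over all tested genes, 18.9% lay apart with Royalactin lower and 19.7% with Royalactin higher. The transporters thus stood at 32.4% lower and 14.7% higher. The median log2 fold change of the 34 genes was -0.17, beside -0.0076 over all tested genes. The sign of this median rested on 1 library, since it was 0.11 without serum/-LIF replicate 1. Of the 34 genes 20 were below 0, a share of 58.8% beside 50.6% of all tested genes. Summed over the 59 genes, the libraries held 26357 and 22678 normalized counts in serum/-LIF and 24590 and 22874 with Royalactin, and the groups overlapped.

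The promoters of 2 of the genes with the lowest p-values are shown, because the light chain gene Slc7a11 and the neutral carrier gene Slc1a4 are known targets of ATF4. The sequences are the 250 bases before the RefSeq transcription start, written 5′ to 3′ on the gene's own strand. The windows come from RefSeq's table (GRCm38.p6) and were placed on mm9, the build of the files, by a single exact match. Slc7a11 lies on the minus strand at chr3:50247536-50247785 and Slc1a4 on the minus strand at chr11:20232717-20232966. Capitals mark the motifs found.
Slc7a11: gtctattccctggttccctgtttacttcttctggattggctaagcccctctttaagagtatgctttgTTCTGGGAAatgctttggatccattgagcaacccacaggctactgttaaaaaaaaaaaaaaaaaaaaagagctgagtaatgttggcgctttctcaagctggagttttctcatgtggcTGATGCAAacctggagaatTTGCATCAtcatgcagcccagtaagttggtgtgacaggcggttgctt
Slc1a4: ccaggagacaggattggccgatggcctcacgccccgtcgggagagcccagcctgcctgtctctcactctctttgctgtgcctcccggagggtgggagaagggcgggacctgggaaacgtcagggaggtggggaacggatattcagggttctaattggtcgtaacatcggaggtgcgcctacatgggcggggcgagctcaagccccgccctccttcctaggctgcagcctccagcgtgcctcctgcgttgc

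Each window was searched on both strands for 4 motifs that share no full match with each other. They were the core of the C/EBP-ATF response element (TTGCATCA), through which ATF4 acts, the STAT palindrome (TTCNNNGAA), the E-box (CACGTG) and the AP-1 element (TGACTCA). In Slc7a11 the C/EBP-ATF core was found on either strand, with its first base 47 and 66 bases before the start, and a STAT palindrome began 183 bases before it. The Slc1a4 window held none of the 4 motifs, which says only that these letters are not in this window. A window was available for 21 of the 34 tested transporters. A gene was counted where any of its windows held the motif. The C/EBP-ATF core was present in 2 of these, Slc7a11 and Slc7a7. It was present in 0.918% of all 27025 genes with a window and in 0.639% of the 9539 tested genes with a window. The STAT palindrome was present in 4 of the 21 (Slc1a3, Slc38a9, Slc7a1 and Slc7a11), in 8.13% of all these genes and in 7.02% of the tested ones. The E-box was present in 4 (Slc36a1, Slc38a7, Slc43a1 and Slc7a14), in 6.86% of all these genes and in 10.1% of the tested ones. The AP-1 element was present in 2 (Slc3a1 and Slc7a1), in 5.16% of all these genes and in 3.78% of the tested ones. A match is a description of letters and not of a bound site.

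To compare levels between genes, normalized counts were divided by the length of each gene's exons. A small set of carriers made up most of the transporter mRNA. The first 3 genes held 47.8% of the summed level per kb and the first 8 held 79.5%. Slc38a2 led, followed by Slc7a3, Slc3a2, Slc7a7, Slc38a4, Slc7a5, Slc38a1 and Slc7a14. Mean levels over the 4 libraries were 1330 normalized counts per kb for Slc38a2 and 689 for Slc7a3. They were 607 for Slc3a2, 486 for Slc7a7, 479 for Slc38a4 and 394 for Slc7a5. Slc38a1 and Slc7a14 had the nearly equal means of 194 and 193 per kb. Every library of Slc38a2, from 958 to 1766 per kb, lay above every library of Slc7a3, from 544 to 787. From Slc7a3 to Slc7a5 each gene's range met that of its neighbour in the order, for instance 523 to 701 per kb for Slc3a2 and 408 to 554 for Slc7a7. The libraries of Slc38a4 spanned 425 to 541 per kb and those of Slc7a5 spanned 253 to 701. Slc38a1, at 151 to 247 per kb, stayed below the lowest library of Slc7a5.

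**Figure D1:**
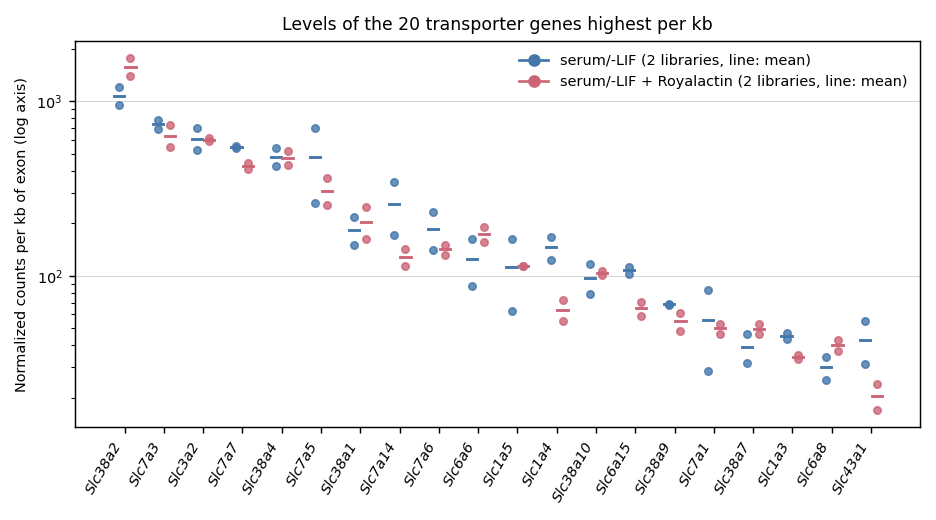
Levels of the 20 transporter genes with the highest mean per kb of exon. Each point is 1 library, in normalized counts per kb on a log axis, with serum/-LIF and serum/-LIF + Royalactin side by side and a line at each group's mean (2 libraries). Slc38a2 stands above the others, with means of 1080 in serum/-LIF and 1581 with Royalactin, and Slc7a5 shows a wide gap between its serum/-LIF libraries.

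The heavy chain Slc3a2 (4F2hc, or CD98) anchors the SLC7 light chains in the plasma membrane. It had 2073 and 1548 normalized counts in serum/-LIF replicates 1 and 2 and 1750 and 1815 with Royalactin. The Royalactin libraries lay between the serum/-LIF libraries. This gave a log2 fold change of -0.0074 ± 0.30 (SE; 95% interval -0.64 to 0.63, limma adjusted p = 0.997), and its sign was positive under both other scalings (0.055 with the upper quartile and 0.048 with the total without Rn45s). Slc3a2 (chr19:8781372-8797859, mm9) was thus 1 of the genes for which a 2-fold change lay outside the interval.

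The other heavy chain, Slc3a1 (rBAT), pairs with Slc7a9 in the uptake of cystine and dibasic amino acids in kidney and gut. It had 20.1 and 96.3 normalized counts in serum/-LIF and 8.05 and 17.9 with Royalactin. Royalactin was lower than both serum/-LIF libraries, but the serum/-LIF replicates themselves differed more than 2-fold. On the log2 scale the difference was -1.79 ± 1.10 (SE; limma adjusted p = 0.669), and it was -0.69 without serum/-LIF replicate 2 and -2.90 without replicate 1. On the annotation, 26.4% of the Slc3a1 exons overlap Prepl on the other strand. The strand setting of the read counting is not stated, so reads of the genes cannot be told apart there. Its partner Slc7a9 had 5.18 normalized counts in serum/-LIF replicate 2 and 0 in the other libraries.

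The 5 SLC7 light chains that were tested had log2 fold changes from -2.02 to -0.10 with a median of -0.36, where 50.6% of all tested genes were below 0. Slc7a11 and Slc7a7 lay apart with Royalactin lower, as did 18.9% of all tested genes. For the other light chains the sign rested on single libraries. Without serum/-LIF replicate 1 Slc7a5 was at 0.21 and Slc7a6 at 0.016, and without replicate 2 Slc7a8 was at 0.37. None of the 5 was called. Slc7a11 (xCT; chr3:50168858-50247535, mm9) exchanges intracellular glutamate for cystine, the source of cysteine for glutathione. It had 100.3 and 98.3 normalized counts in serum/-LIF (75 and 95 reads) and 31.2 and 17.9 with Royalactin (31 and 26 reads). The serum/-LIF libraries were nearly equal and both Royalactin libraries were far below them. The fitted log2 fold change was -2.02 ± 0.73 (SE; 95% interval -3.60 to -0.45, unadjusted p = 0.0157), with a limma adjusted p of 0.377. Given this standard error, a log2 difference of 3.62 would have been needed for a call in this fit. The means were 99.3 ± 1.39 (SD, n = 2) in serum/-LIF and 24.5 ± 9.39 with Royalactin.

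Slc7a7 (y+LAT1) exchanges cationic for neutral amino acids. It had 1224 and 1257 normalized counts in serum/-LIF and 1005 and 925 with Royalactin, and both Royalactin libraries were lower. Its log2 fold change was -0.36 ± 0.29 (SE; 95% interval -0.997 to 0.27, limma adjusted p = 0.764). Of its exons, 9.96% overlap Oxa1l on the other strand.

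Slc7a5 (LAT1) brings in leucine and other large neutral amino acids in exchange for glutamine, and is the light chain most often tied to mTORC1. It had 2463 and 921 normalized counts in serum/-LIF and 1272 and 889 with Royalactin. Replicate 1 of serum/-LIF was 2.67-fold above replicate 2, and Royalactin replicate 1 lay between them. The log2 fold change was -0.50 ± 0.41 (SE; 95% interval -1.38 to 0.38, limma adjusted p = 0.765). Without serum/-LIF replicate 1 it was 0.21, so the direction rested on that library.

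The other light chains were Slc7a6 (y+LAT2) at -0.35 and Slc7a8 (LAT2) at -0.10 on the log2 scale, and the groups of both overlapped. Slc7a8 was low, with 16.5 to 34.2 normalized counts. Slc7a10 (asc-1) had 12.0 normalized counts in serum/-LIF replicate 1 and 0 elsewhere, and Slc7a12 and Slc7a13 were at 0 in all libraries.

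Among the other SLC7 carriers, Slc7a3 (CAT3), a carrier of arginine and lysine, was the highest. It had 2977 and 2632 normalized counts in serum/-LIF and 2059 and 2760 with Royalactin. Royalactin replicate 2 lay between the serum/-LIF libraries, so the groups overlapped. On the log2 scale the difference was -0.23 ± 0.30 (SE; 95% interval -0.87 to 0.40, limma adjusted p = 0.861). Stretches of its exons have close copies elsewhere in the genome, and 9.6% of 75-base exon tiles also mapped to another place.

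Slc7a14 (chr3:31101832-31209300, mm9) belongs to this branch by sequence and is found in lysosomes. It had 1682 and 3362 normalized counts in serum/-LIF and 1109 and 1388 with Royalactin. The Royalactin libraries were both lower than both serum/-LIF libraries, and serum/-LIF replicate 2 was the highest. The fitted log2 fold change was -0.94 ± 0.35 (SE; 95% interval -1.69 to -0.19, unadjusted p = 0.0181), with a limma adjusted p of 0.389. Without serum/-LIF replicate 2 the log2 fold change was -0.44, and without replicate 1 it was -1.44. Slc7a14 was called under 2 of the 16 alternatives, over which the limma adjusted p ranged from 9.45e-05 to 0.9996.

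The housekeeping arginine carrier Slc7a1 (CAT1) had 625 and 215 normalized counts in serum/-LIF and 351 and 401 with Royalactin. The serum/-LIF replicates enclosed the Royalactin libraries, and the log2 fold change was 0.03 with a 95% interval from -0.96 to 1.03. Slc7a2 (CAT2) had 62.1 to 82.5 normalized counts and a log2 fold change of 0.05. Slc7a4, of the same branch by sequence, had 9.36 and 8.28 normalized counts in serum/-LIF and 16.1 and 17.2 with Royalactin, from 7 to 25 reads. Its groups did not overlap and the 95% interval of the log2 fold change ran from -2.05 to 3.74. On the annotation, 13.9% of the Slc7a4 exons overlap P2rx6 on the other strand. Slc7a15 was at 0 in all libraries.

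**Figure D2:**
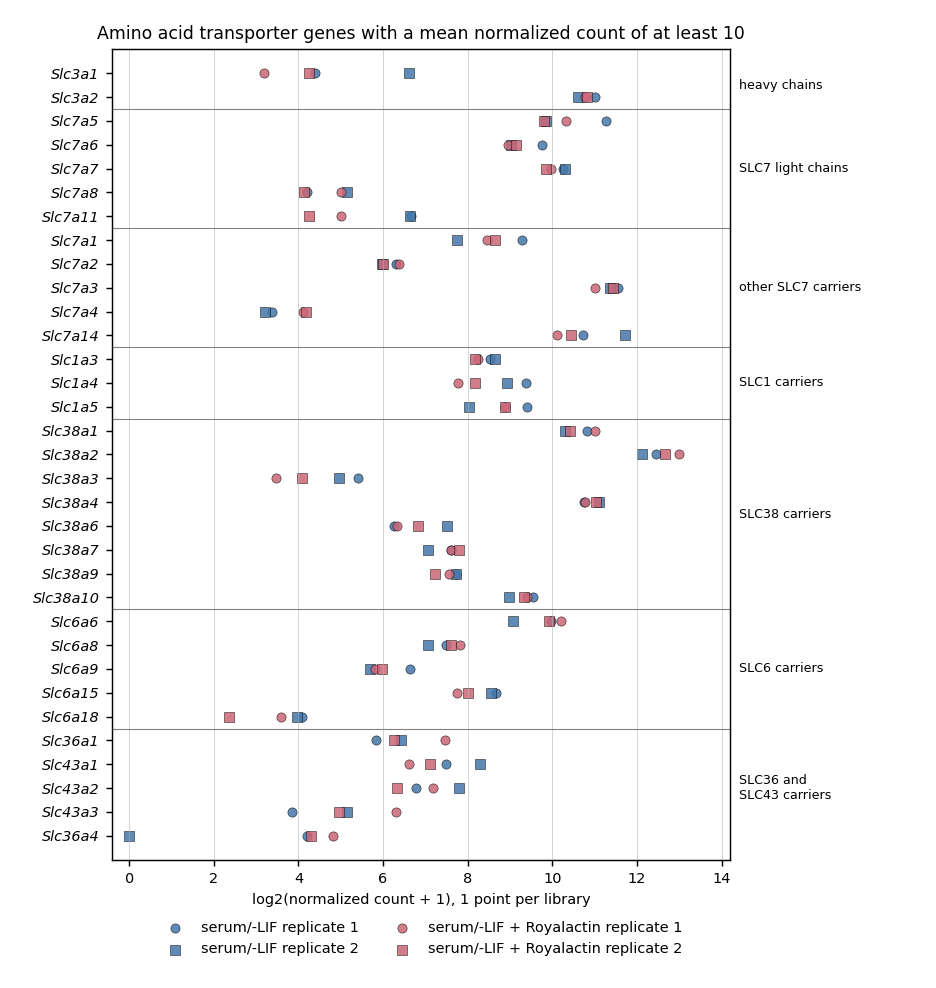
Tested transporter genes (33 of 34 shown) in each library, as log2(normalized count + 1), grouped by family. Blue points are serum/-LIF and red points serum/-LIF + Royalactin, with circles for replicate 1 and squares for replicate 2. Groups separate with Royalactin lower for 11 genes, such as Slc7a11, Slc1a4 and Slc7a14, and over all 34 tested genes they separate with Royalactin higher for 5, such as Slc38a2 and Slc6a8.

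Of the SLC1 carriers, 3 of 7 were tested. Slc1a4 (ASCT1; chr11:20202183-20232716, mm9) exchanges alanine, serine, cysteine and threonine. It had 659 and 482 normalized counts in serum/-LIF and 216 and 286 with Royalactin. Both Royalactin libraries lay well below both serum/-LIF libraries, at means of 251 ± 49.1 (SD, n = 2) against 571 ± 125. Its log2 fold change was -1.18 ± 0.37 (SE; 95% interval -1.98 to -0.38, unadjusted p = 0.00701), with a limma adjusted p of 0.268. After correction of each library for GC content and exon length the adjusted p was 0.0401, within a range of 0.00136 to 0.9996 over the 16 alternatives for that gene, the highest of them with a library left out.

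The related glutamine carrier Slc1a5 (ASCT2) had 675 and 261 normalized counts in serum/-LIF, and 471 and 474 with Royalactin. The Royalactin libraries were nearly equal and lay between serum/-LIF replicates that differed 2.59-fold. This gave a log2 fold change of 0.17, with a 95% interval from -0.75 to 1.09. Slc1a3 (GLAST), a glutamate carrier of astrocytes, had 370 and 401 normalized counts in serum/-LIF and 301 and 285 with Royalactin. Its groups did not overlap, and the log2 fold change of -0.39 was not called. Slc1a1 and Slc1a7 reached no more than 6.20 and 3.02 normalized counts, and Slc1a6 reached 21.4 in serum/-LIF replicate 1. Slc1a2 was at 0 in all libraries.

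Of the SLC38 carriers 8 of 11 were tested, with 4 above and 4 below 0 and a median log2 fold change of 0.04. Slc38a2 (SNAT2; chr15:96517825-96530129, mm9) takes up small neutral amino acids with sodium and had the highest level of all transporters. It had 5562 and 4432 normalized counts in serum/-LIF and 8170 and 6453 with Royalactin. Both Royalactin libraries were higher. The log2 fold change was 0.55 ± 0.31 (SE; 95% interval -0.12 to 1.21, limma adjusted p = 0.636). The means were 7312 ± 1214 (SD, n = 2) with Royalactin and 4997 ± 799 in serum/-LIF.

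Slc38a4 (SNAT4), an imprinted gene of the same transport system, had 1712 and 2181 normalized counts in serum/-LIF and 1739 and 2083 with Royalactin. The Royalactin libraries lay between the serum/-LIF libraries. The fitted log2 fold change was -0.02 ± 0.30 (SE; 95% interval -0.66 to 0.61, limma adjusted p = 0.991), and it was 0.041 and 0.034 under the other scalings. Slc38a1 (SNAT1), which carries glutamine, had 1816 and 1267 normalized counts in serum/-LIF and 2073 and 1363 with Royalactin. In each group replicate 1 was the higher library and the groups overlapped. Its log2 fold change was 0.15 ± 0.32 (SE; 95% interval -0.55 to 0.85, limma adjusted p = 0.928).

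The neighbours Slc38a1, Slc38a2 and Slc38a4 lie together on chromosome 15. They held 3 of the 7 highest levels per kb, and only Slc38a2 of them had groups that did not overlap.

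Slc38a3 (SNAT3), a glutamine carrier that also works outward, had 41.5 and 30.0 normalized counts in serum/-LIF and 10.1 and 15.8 with Royalactin. With Royalactin both libraries were lower, on 10 and 23 reads. This gave a log2 fold change of -1.41 ± 1.05 (SE; 95% interval -3.67 to 0.84, limma adjusted p = 0.735). Slc38a5 (SNAT5), of the same system, lay under the filter with 4.01 and 0 normalized counts in serum/-LIF and 12.1 and 18.6 with Royalactin. These glutamine carriers had their higher libraries in opposite groups.

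The lysosomal carriers of this family were Slc38a9, which reports lysosomal arginine to mTORC1, and Slc38a7, which releases glutamine. Slc38a9 had 209 and 211 normalized counts in serum/-LIF and 187 and 148 with Royalactin, and its groups did not overlap (log2 fold change -0.33, 95% interval -1.27 to 0.60). Slc38a7 had a log2 fold change of 0.37 with overlapping groups. Slc38a10 stood at 0.11 and Slc38a6 at -0.30, both with overlapping groups. For Slc38a6, 53.6% of the exon tiles also mapped elsewhere in the genome, so its count is uncertain. Slc38a8 and Slc38a11 were at 0 in all libraries.

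Only 6 of the 17 SLC6 genes were tested, 3 of them above and 3 below 0. Slc6a15 (B0AT2), which carries branched-chain amino acids and proline, had 405 and 372 normalized counts in serum/-LIF and 213 and 256 with Royalactin. Both Royalactin libraries were lower, and the log2 fold change was -0.73 ± 0.38 (SE; 95% interval -1.54 to 0.08, limma adjusted p = 0.604). The creatine carrier Slc6a8 had 179 and 132 normalized counts in serum/-LIF and 224 and 193 with Royalactin. Its groups did not overlap, with Royalactin higher and a log2 fold change of 0.43, or 0.21 without serum/-LIF replicate 2. The taurine carrier Slc6a6 was the highest SLC6 gene per kb, at 149 normalized counts per kb, with overlapping groups and a log2 fold change of 0.53. The glycine carrier Slc6a9 (GlyT1) had a log2 fold change of -0.26 with overlapping groups, and 27.8% of its exons overlap Ccdc24 on the other strand.

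Slc6a18, a kidney carrier of neutral amino acids, had 16.0 and 14.5 normalized counts in serum/-LIF and 11.1 and 4.13 with Royalactin. With Royalactin both libraries were lower, on 11 and 6 reads, and the log2 fold change was -1.05 ± 1.47 (SE; limma adjusted p = 0.875), or -0.43 without Royalactin replicate 2.

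The 11 SLC6 genes under the filter were low. Slc6a11, Slc6a12, Slc6a14 and Slc6a17 each reached 19.7 to 25.9 normalized counts in a single serum/-LIF library and at most 2.75 in any other. Slc6a2, Slc6a7, Slc6a13 and Slc6a19 reached 1.38 to 7.57 normalized counts. Slc6a3, Slc6a4 and Slc6a5, the carriers of dopamine, serotonin and glycine, were at 0 in all libraries.

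Of the proton-coupled SLC36 and the SLC43 carriers, 5 of 7 were tested. Slc43a1 (LAT3), a facilitative carrier of branched-chain amino acids and phenylalanine, had 179 and 314 normalized counts in serum/-LIF and 97.6 and 138 with Royalactin. The Royalactin libraries were both lower. On the log2 scale the difference was -1.03 ± 0.48 (SE; 95% interval -2.07 to 0.013, limma adjusted p = 0.544), and it was -0.62 without serum/-LIF replicate 2. The related Slc43a2 (LAT4) had a log2 fold change of -0.52 with overlapping groups. Slc43a3 had 13.4 and 34.2 normalized counts in serum/-LIF and 77.4 and 30.3 with Royalactin, and its log2 fold change of 1.14 came with overlapping groups.

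The lysosomal carrier Slc36a1 (PAT1) had 56.2 and 84.9 normalized counts in serum/-LIF, and 174 and 75.7 with Royalactin. Only Royalactin replicate 1 stood above serum/-LIF. Slc36a4 (PAT4) had 17.4 and 0 normalized counts in serum/-LIF (13 and 0 reads) and 27.2 and 18.6 with Royalactin (27 reads in each). Both Royalactin libraries were higher. The fitted log2 fold change was 2.45 ± 1.74 (SE; 95% interval -1.30 to 6.20, limma adjusted p = 0.724), and it was 0.35 without serum/-LIF replicate 2. Slc36a2 and Slc36a3 were at 0 in all libraries.

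**Figure D3:**
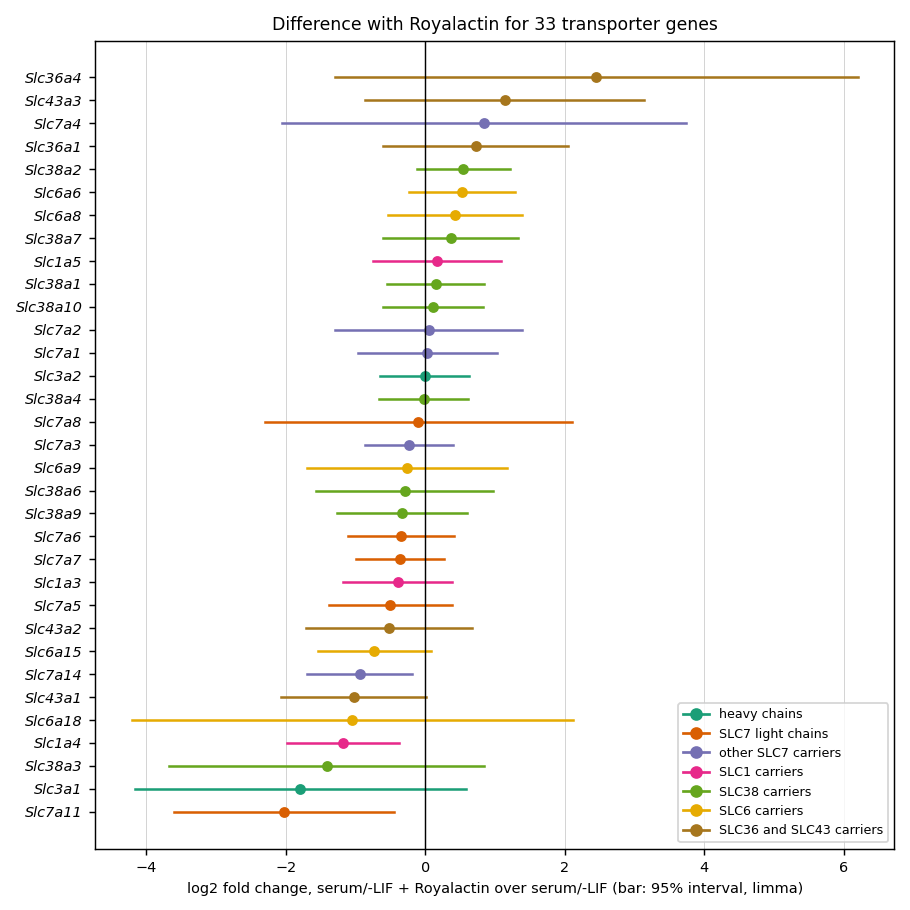
Log2 fold change of serum/-LIF + Royalactin over serum/-LIF for 33 of the 34 tested transporter genes, ordered by value and coloured by family. Points are limma estimates from 2 libraries per group and bars are 95% intervals. The intervals of Slc7a14, Slc1a4 and Slc7a11 leave out 0, and none of these genes had an adjusted p under 0.05.

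Of the 25 transporters under the filter, 11 had no read in any library and 14 had a read in at least 1. A gene without a read is limited only by the floor of 3 reads per library. The spread between replicates bounded what could be seen in the rest. The serum/-LIF replicates differed more than 2-fold for 9 of the 34 tested transporters, and for 27.0% of all tested genes. The Royalactin replicates did so for 4 transporters, and for 16.3% of all genes. The median absolute log2 difference between replicates was 0.55 for the transporters in serum/-LIF, where it was 0.57 over all genes. It was 0.34 with Royalactin, where it was 0.39 over all genes.

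Lists of other genes of amino acid handling were read in the same fit, and none of their genes was called. Of 21 other carriers of amino acids and peptides, 14 were tested, with a median log2 fold change of 0.59 6 genes (42.9%) apart with Royalactin higher and 2 (14.3%) apart with Royalactin lower. Over all tested genes these shares were 19.7% and 18.9%. The peptide carrier Slc15a1 had 4.01 and 3.11 normalized counts in serum/-LIF and 47.3 and 46.1 with Royalactin (limma adjusted p = 0.392). The serum/-LIF values of Slc15a1 equal 3 reads in each library. The mitochondrial carrier Slc25a29 had 21.4 and 24.8 normalized counts in serum/-LIF and 0 in both Royalactin libraries, where the floor of 3 reads is 3.02 and 2.07.

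Of 32 genes of amino acid sensing by mTORC1, 31 were in the table and were tested (Samtor had no row). Their median log2 fold change was 0.19, with 8 genes (25.8%) apart with Royalactin higher and 2 (6.45%) apart with Royalactin lower. Over all tested genes these shares were 19.7% and 18.9%. Flcn, part of the complex that activates the Rag GTPases, had the highest fitted value. It had 341 and 138 normalized counts in serum/-LIF and 515 and 567 with Royalactin (log2 fold change 1.31, limma adjusted p = 0.318). The Rag GTPase gene Rraga had the lowest fitted value, with 766 and 573 normalized counts against 363 and 271 (log2 fold change -1.08, limma adjusted p = 0.306). Both genes had groups that did not overlap.

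The 21 genes of the ATF4 amino acid response had a median log2 fold change of -0.50, beside -0.17 for the transporters and -0.0076 over all tested genes. Of these, 18 were below 0 and 14 (66.7%) lay apart with Royalactin lower, where 18.9% of all tested genes did. At an unadjusted limma p under 0.05 there were 5 genes lower and 1 higher, where 9.34% of all tested genes passed in either direction. Of the list, 0 passed the limma adjusted threshold, with a lowest adjusted p of 0.221. Ddit3 (CHOP) had 90.9 and 85.9 normalized counts in serum/-LIF and 17.1 and 28.9 with Royalactin, a log2 fold change of -1.94. Phgdh, the entry enzyme of serine synthesis, had 2279 and 2426 normalized counts in serum/-LIF and 966 and 1567 with Royalactin. Nupr1 ran the other way, with 17.4 and 0 normalized counts in serum/-LIF and 45.3 and 84.7 with Royalactin. Atf4 itself and the asparagine synthetase gene Asns, chosen after their values were seen, had log2 fold changes of -0.53 and -0.50, with groups that did not overlap. Among transporters known as ATF4 targets, also picked with their values in view, Slc7a11, Slc1a4 and Slc7a5 had log2 fold changes of -2.02, -1.18 and -0.50. Slc3a2 and Slc38a2, also known targets, stood at -0.0074 and 0.55. The fitted values of these targets thus lay on both sides of 0.

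Of 18 enzymes of glutamine, glutamate and glutathione metabolism 17 were tested, with a median log2 fold change of 0.05 4 genes (23.5%) apart with Royalactin lower and 1 apart with Royalactin higher, where 18.9% and 19.7% of all tested genes lay apart. Ggt1, which cleaves extracellular glutathione, had the lowest log2 fold change, -0.97. The highest was 1.34 for the alanine transaminase Gpt, whose groups overlapped. Gpt had 36.1 and 0 normalized counts in serum/-LIF and 12.1 and 17.2 with Royalactin. Its mean was lower with Royalactin, at 14.6 against 18.1. The positive log2 fold change of Gpt thus rested on the serum/-LIF library without a read.

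**Figure D4:**
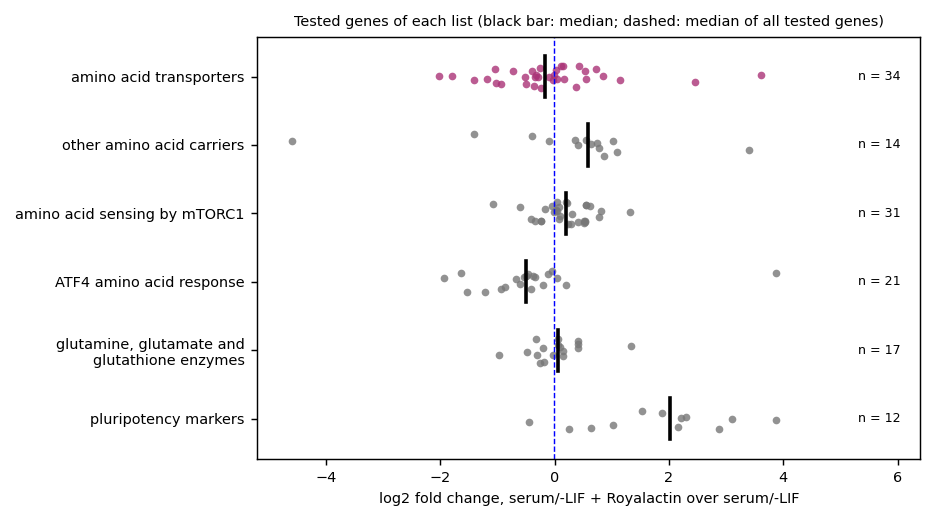
Log2 fold change of each tested gene for the transporters and for 5 other lists, with 1 point per gene, a black bar at the median of the list and a dashed line at the median of all tested genes. The medians are -0.17 for the 34 transporters, 0.59, 0.19, -0.50 and 0.05 for the lists of amino acid handling, and 2.02 for the 12 pluripotency genes. The lowest point, Slc25a29, had no read in either Royalactin library, so its place depends on the pseudocount.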

How the data were processed

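The 4 RNA-seq libraries of J1 mESCs were used, with groups and replicates taken from the sample labels. The 30 ATAC-seq samples among the 34 of the series were not analysed here. After ribosomal depletion and sequencing, the authors mapped reads on mm9 (TopHat, 2 mismatches), obtained counts for each gene (HTSeq-count) and deposited these counts divided by DESeq size factors, which is a signal that scales with reads. Neither the counting strand nor the annotation is given in the sources used here. Division by the value of 1 read gave whole numbers, to within 0.01 of a read, for 100% of the entries in each library, and these were taken as reads. In serum/-LIF + Royalactin replicate 1 1 read was worth 1.01 normalized counts, so near 1 that whole reads there follow less firmly. All columns of the table were mapped to a sample.

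Differences were tested with limma 3.58.1 in R 4.3.3 on log2(normalized count + 1), which understates changes of low genes, for genes with a mean of at least 10. Variances were moderated with eBayes and its trend, and two-sided p-values were adjusted by Benjamini-Hochberg. Tests with edgeR 4.0.16 (quasi-likelihood) and DESeq2 1.42.0 on recovered reads were added after seeing the data. The 2-fold limit at an unadjusted limma p under 0.05 follows the limits of the study, which names no adjustment. Alternatives were other pseudocounts, filters and scalings, the replicate number as a block, no variance trend, a lowess correction (span 0.3) for GC content and exon length, and each library left out in turn. The statistical steps were tested on simulated data with known changes. There limma recovered 6.63% of 2-fold and 58.5% of 4-fold changes, and 1.52% of its calls were false.

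The members, gene lists and tests were chosen with earlier results of these data known. Library values, fold changes and adjusted p are given for transporters called with or without the block, for those with an absolute log2 fold change of at least 1 and groups that do not overlap, and for the 8 highest per kb, and in part for others. From the other lists, called genes and the highest and lowest fold change are named. Positions, exon lengths and overlaps come from the GENCODE annotation of mm9, in which all 59 genes were found. Exon tiles of 75 bases were mapped with minimap2 2.31-r1302 to find copies. Promoter windows were in the RefSeq table for 41 of the 59 genes. Values of 1 tested transporter are not reported here, although it stays in the counts.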

Additional observations from a re-analysis of the deposited data

How the results depend on the processing

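No transporter was called by limma, and this also held under 13 of the 16 alternatives. The exceptions were the replicate block (1, Slc7a14, adjusted p = 0.0350), the correction for GC content and exon length (1, Slc1a4) and both together (3: Slc1a4, Slc38a2 and Slc7a14, with adjusted p of 0.00136, 0.0351 and 9.45e-05). The labels link replicates across the groups only through their number. The Rn45s share was also larger in replicate 1, at 46.6% against 21.6% in serum/-LIF and 38.4% against 9.08% with Royalactin. The deviations of same-numbered libraries correlated at 0.0851. The block is not read as a pairing, and whether same-numbered libraries shared a preparation was not tested. Calls over all tested genes rose in the same settings, so these calls are not read as a trait of the transporters. With the block 391 of 12993 tested genes were called instead of 64. In the lists of amino acid handling 2 genes were called instead of 0 (Flcn and Phgdh), and the trophoblast marker Tfap2c was also called. The GC and length correction gave 273 of 12771 tested genes and 1 in these lists. Both together gave 809 of 12771 tested genes and 6 in these lists. Over all genes, 32 were called at a pseudocount of 0.1, 34 without the filter, 99 at a mean of at least 50 and 248 by DESeq2. Without the variance trend limma called 0, with 1135 at an unadjusted p under 0.05. With each library left out in turn, leaving 1 library that is assumed to vary like the other group, the calls ranged from 0 to 0, with 428 to 2496 at an unadjusted p under 0.05. Transporters with groups apart, 16 in the main result, then ranged from 20 to 29, because a lone library separates more easily, and were 10 at a mean of at least 50. The share over all genes in these settings is not given, so these counts are not read as a trait of the transporters. The transporters' median log2 fold change ranged from -0.27 to 0.11 with a library left out. The sign turned under some alternative for 12 of the 34 tested transporters, each of them with a library left out, of which 4 met the rule for full values. Slc3a2 was 0.055 with the upper quartile, 0.048 with the total without Rn45s and -0.22 to 0.20 with a library left out. Slc38a4 was 0.041, 0.034, 0.018 with the GC and length correction with or without the block, and -0.20 to 0.15 with a library left out. With a library left out Slc38a1 ranged from -0.15 to 0.45 and Slc7a5 from -1.21 to 0.21. The cause of these changes was not tested. Of 251 values of the 16 genes that met the rule for full values, 233 kept their direction and side of the threshold, 13 turned and 5 passed it. The scaling moved the all-gene median by less than 0.1.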
